A study of Mus musculus with 6 samples.

Results

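The genes Runx1, Runx2 and Runx3 and their partner gene Cbfb were described by the ATAC-seq peaks in and around them. Peaks from 6 libraries that shared at least 1 bp were joined into regions, and those that overlapped the RefSeq span of a gene extended by 50 kb on each side were taken as its locus. The 4 loci held 85 of the 89410 regions of the series, with 25 at Runx1, 32 at Runx2, 16 at Runx3 and 12 at Cbfb. The genes are 4 of the 49943 genes that the annotation places.

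The cells were an immortalized mouse osteoblast line (OB) with floxed alleles of Fam20c, a kinase of secreted proteins, and its derivative, made from the same line with a lentivirus carrying Cre recombinase. They were named OB Fam20c f/f, here f/f, and OB Fam20c KO, here KO. Each group had 3 libraries, from 50000 nuclei exposed to the transposase for 30 min at 37 °C, and the sample titles give their replicate numbers. All 6 libraries thus come from 1 immortalized line, and nothing in the labels says that the libraries of a group came from separate cultures, so that p-values measure only the spread between these libraries. The labels name the tissue, the cell type and the control or KO status and give no further genotype.

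RUNX proteins bind DNA through the conserved Runt domain and recognise short sites with the core TGTGGT. CBFβ, the protein of Cbfb, does not contact DNA itself and strengthens the binding of its RUNX partner. RUNX2 is the master regulator of osteoblast commitment, RUNX1 is known above all for blood stem cell formation, and RUNX3 for T cell and neuronal development, and both RUNX1 and RUNX3 also act in the skeleton. Each of the Runx genes is read from a distal promoter, P1, and a proximal promoter, P2, which give proteins with different N-termini.

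The sequences at the gene starts are shown first, because the peaks described next lie over them. RefSeq gives a distal and a proximal start for Runx1 and Runx3 and 1 start each for Runx2 and Cbfb, on the GRCm38 build that the peak lists share under the name mm10. The 120 bases before each start follow, 5′ to 3′ on the strand of the gene, with every CG dinucleotide in capitals, since the density of CG separates the starts.
Runx1 distal start, chr16:92826075-92826194, minus strand: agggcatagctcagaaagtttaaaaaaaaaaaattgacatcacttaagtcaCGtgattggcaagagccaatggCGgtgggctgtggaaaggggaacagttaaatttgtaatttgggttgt
Runx1 proximal start, chr16:92697330-92697449, minus strand: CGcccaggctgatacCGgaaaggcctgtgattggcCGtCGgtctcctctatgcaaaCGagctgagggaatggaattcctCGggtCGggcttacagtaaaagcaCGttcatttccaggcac
Runx2 listed start, chr17:44814628-44814747, minus strand: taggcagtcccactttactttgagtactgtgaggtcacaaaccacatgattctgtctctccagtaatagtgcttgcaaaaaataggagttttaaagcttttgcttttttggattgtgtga
Runx3 distal start, chr4:135120525-135120644, plus strand: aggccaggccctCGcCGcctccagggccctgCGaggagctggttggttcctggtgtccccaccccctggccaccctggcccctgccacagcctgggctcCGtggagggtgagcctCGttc
Runx3 proximal start, chr4:135152425-135152544, plus strand: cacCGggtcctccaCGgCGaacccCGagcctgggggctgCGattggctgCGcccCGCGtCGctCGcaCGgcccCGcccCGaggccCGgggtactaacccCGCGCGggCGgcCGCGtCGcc
Cbfb start, chr8:105170554-105170673, plus strand: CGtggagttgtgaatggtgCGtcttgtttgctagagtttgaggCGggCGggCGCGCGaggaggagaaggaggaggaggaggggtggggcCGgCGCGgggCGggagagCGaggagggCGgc

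In the whole window of 300 bases around a start, the Runx1 distal and the Runx2 windows held 2 CG dinucleotides each, at 45.0% and 45.3% GC. The Runx3 distal window held 8, at 63.7% GC. The Runx1 proximal, Runx3 proximal and Cbfb windows held 35, 45 and 30, at 69.0%, 77.3% and 69.7% GC. Over all 32851 promoter windows of the table the median was 7 CG dinucleotides and 52.7% GC, so that the distal windows of Runx1 and Runx2 lay below it and the proximal windows and Cbfb far above.

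The distal starts of the 3 Runx genes shared an unbroken element of 18 bases, shown here in capitals within 30 bases of its surroundings, because it holds the Runx core ACCACA, the reverse complement of TGTGGT, in 2 copies.
Runx1, chr16:92826025-92826054, minus strand: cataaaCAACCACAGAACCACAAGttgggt
Runx2, chr17:44814583-44814612, minus strand: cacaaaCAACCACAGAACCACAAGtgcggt
Runx3, chr4:135120503-135120532, plus strand: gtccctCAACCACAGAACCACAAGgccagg

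Counted from 1 at the first transcribed base, the element began at position 27 at Runx1, at position 22 at Runx2 and at position -136 at Runx3. It occurred in 4 of the 32851 promoter windows on either strand, these 3 and that of Gm16225, which lies across the Runx3 distal start on the opposite strand. The core TGTGGT on either strand was found in 16.8% of all windows, and among the 6 windows only in the 3 distal ones, with 2 copies at Runx1, 3 at Runx2 and 2 at Runx3. TGANTCA, a pattern that includes the AP-1 site TGASTCA (S is C or G) and is wider than it, was in 7.81% of all windows and in none of the 6. These matches are a description of the letters in the windows and not of bound sites.

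Before the members are compared, the libraries need a short account. The lists held 62781 to 74797 peaks in 5 libraries and 32958 in KO replicate 3, and covered 41.4 to 56.2 Mb in the former and 21.9 Mb in the latter. Of the summits of KO replicate 3, 29.6% lay within 1 kb of a listed start, against 15.7% to 18.0% in the other libraries, so that this list is short and weighted towards gene starts. The main counts of regions and limma calls are given with and without it, and some other results with all 6 libraries only. The Fam20c span itself had a peak over its start in all 6 libraries. Its other 2 regions had peaks in KO replicate 1 alone and in f/f replicates 1 and 3. Peaks do not check the deletion. Of 6 osteoblast markers with a listed start, Runx2, Col1a2 and Spp1 had a peak within 1 kb of a start in all 6 libraries, Alpl in all but KO replicate 3, and Bglap and Ibsp in none. Of 4 haematopoietic markers, Cd79a had a peak in f/f replicate 3 and the others in none. Krt8 of 3 epithelial markers had a peak in all 6 libraries, and no marker of adipocytes (2), chondrocytes (1) or muscle (1) had one.

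The Runx2 gene (chr17:44495987-44814797) held peaks along its whole length. Of its 32 regions, 1 lay over the listed start, 28 elsewhere in the gene and 3 beyond its 3′ end. The Runx1 gene (chr16:92601466-92826074) had 2 regions over its starts, 17 elsewhere in the gene, 2 upstream and 4 downstream. Runx3 (chr4:135120645-135177990), a gene several times shorter, had 2 over its starts, 4 elsewhere in the gene, 4 upstream and 6 downstream. Cbfb (chr8:105170674-105217989) had 1 over its start, 2 elsewhere in the gene, 6 upstream and 3 downstream. Exons and introns were not resolved, since the annotation used here gives gene spans only. Per 100 kb of extended locus there were 7.70 regions at Runx1, 7.64 at Runx2, 10.2 at Runx3 and 8.15 at Cbfb, against a median of 5.78 over protein-coding genes, of which 62.3%, 61.9%, 76.1% and 65.2% had a lower density.

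**Figure D1:**
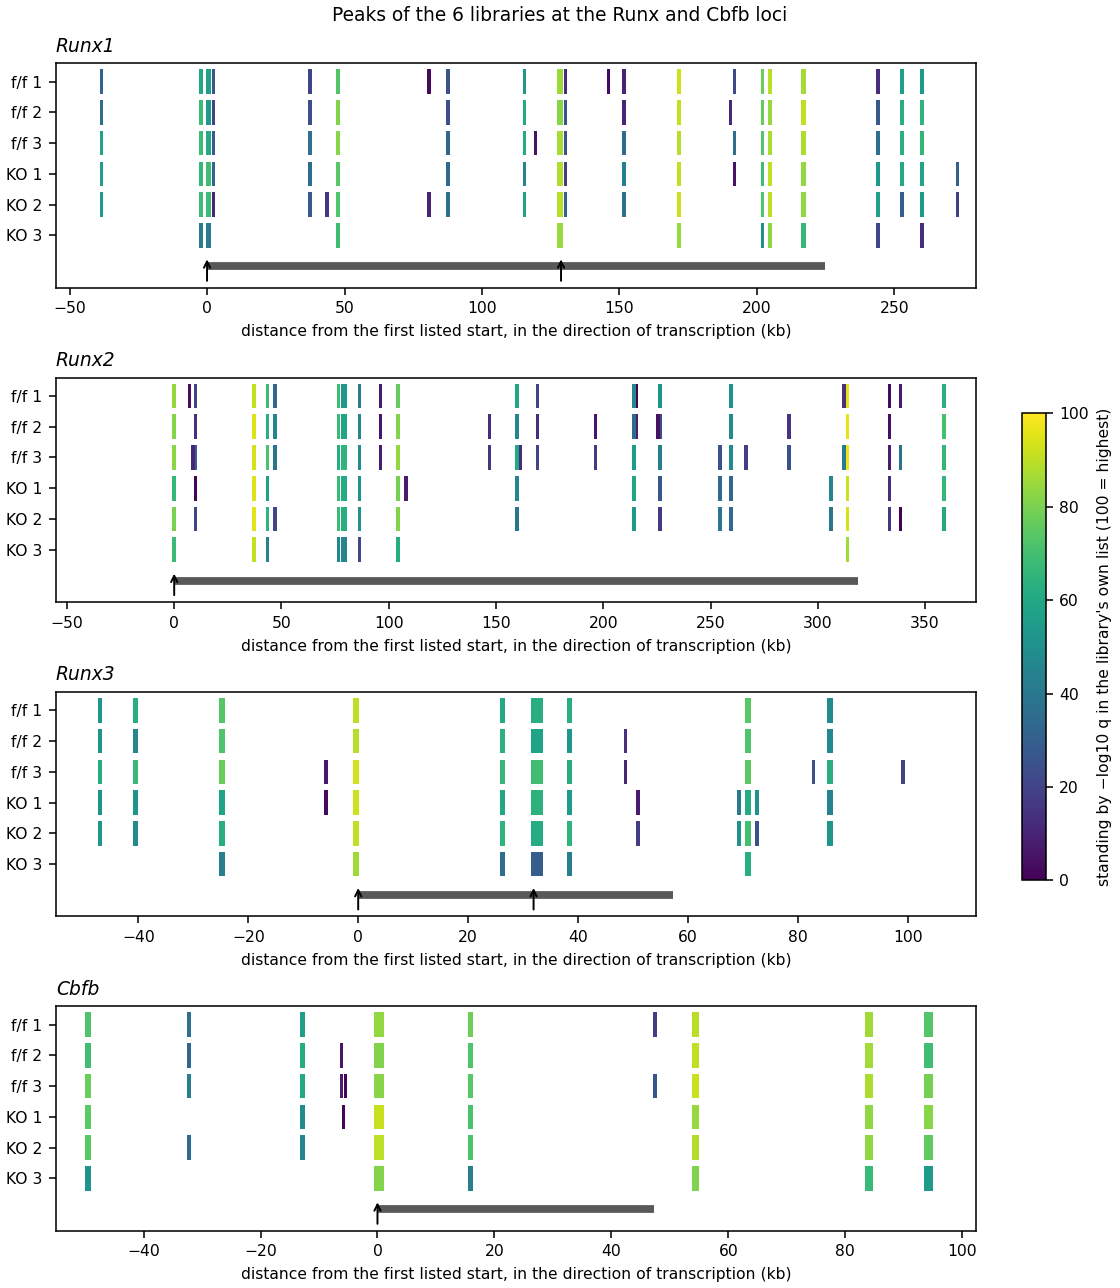
Peaks at the Runx1, Runx2, Runx3 and Cbfb loci, 1 row per library, against the distance in kb from the first listed start in the direction of transcription. Each bar is a merged region with a peak in that library, coloured by its standing by −log10 q in that library's own list, the grey bar is the gene span and arrows mark listed starts. The bars over the starts run through all 6 rows, whereas the row of KO replicate 3 holds 6 to 10 bars a locus.

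All 6 listed starts of the 4 genes carried a peak in every library. Counting the starts of the neighbours Supt3 and D230025D16Rik as well, 8 of 8 regions over a listed start in these loci had a peak in all 6 libraries, and 22 of the other 77 did (28.6%). Over the whole series these shares were 86.4% of 10738 regions over a start and 26.2% of the other 78672. Across the 4 loci 30 of 85 regions had a peak in all 6 libraries (35.3%, against 33.4% of all regions), of which 10 were at Runx1, 8 at Runx2, 6 at Runx3 and 6 at Cbfb. A further 19 had a peak in every library but KO replicate 3 (22.4%, against 19.2%), and 14 in 1 library alone, against a share of 19.8% over all regions. These shares lay close to those over all regions.

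The widest region of the 4 loci, of 2754 bp, lay 79.3 kb inside Runx2 (chr17:44733951-44736704), where the table lists no start. The table gives no proximal start for Runx2, so P2 of this gene was not located and is not among the start regions compared below. Its peak stood at 53.7, 59.1 and 65.2 in the 3 f/f lists by −log10 q and at 61.4, 63.0 and 45.4 in the 3 KO lists. A standing is the percentile rank of a peak in its own list, where 100 is the highest. Standings are used because the deposited fold and −log10 q depend on the depth and background of their own library. A standing in a whole list also moves with the length of that list. Ranked only against regions that every library shared, this widest region stood at 17.6, 22.9 and 22.8 in f/f by −log10 q. In KO it stood at 23.3, 24.4 and 40.4. On that scale the groups did not overlap and KO replicate 3 was the highest, but the difference did not pass (limma adjusted p = 0.269). By fold the groups overlapped.

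By the mean standing over the 6 lists, the strongest region of each locus lay over a start of the gene itself in 1 case and elsewhere in 3. At Runx3 it was the region over the distal start, which also covers a start of Gm16225 (mean standing 90.1). At Runx2 it was a region 314 kb from the listed start, close to the 3′ end of the gene (chr17:44500201-44501248), with a mean of 93.7. At Runx1 it was a region inside the gene, 172 kb from the distal start (chr16:92653856-92655225), with a mean of 89.9. At Cbfb it was a region beyond the 3′ end over the start of the neighbour D230025D16Rik (chr8:105224529-105225676), with a mean of 87.7.

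Fewer Runx2 regions had a peak in the KO lists than in the f/f lists, but not when only the strongest peaks of each list were taken. There were 22, 23 and 27 in the 3 f/f libraries and 18, 19 and 8 in the 3 KO libraries, so the groups did not overlap. The means were 24.0 ± 2.65 and 15.0 ± 6.08 (SD, n = 3 each), a difference of -9 regions (exact two-sided permutation test, p = 0.1, adjusted over the 4 loci p = 0.2). With 3 libraries a group 0.1 is the smallest p that this test can give, so no count here can pass 0.05. The share of other genes whose counts separate the groups in the same way is not given here. A separation at any of the 4 genes is therefore not read as unusual. At Runx2 the difference was -5.5 regions without KO replicate 3. The lists differ in length, and 2 ways of allowing for this gave different answers. Per 10000 peaks of the list, Runx2 had 3.44, 3.66 and 3.61 regions in f/f and 2.81, 2.94 and 2.43 in KO, again without overlap (difference -0.844, exact permutation p = 0.1, adjusted p = 0.2). When the 32958 peaks with the highest −log10 q were taken from each list, 11, 9 and 9 Runx2 regions had a peak in f/f and 10, 10 and 8 in KO, the groups overlapped and the difference was -0.333 (exact permutation p = 1).

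With all 6 libraries, no other member had fewer regions in every KO library than in every f/f library on both scales. At Runx1, 21, 19 and 20 regions had a peak in f/f and 20, 21 and 10 in KO, a difference of -3 (exact permutation p = 0.9) that was 0.5 without KO replicate 3. At Runx3 the numbers were 9, 10 and 13 against 13, 12 and 6, with overlap (exact permutation p = 1). Per 10000 peaks Runx3 had 1.41, 1.59 and 1.74 regions in f/f and 2.03, 1.86 and 1.82 in KO, so on this scale each KO library stood above each f/f library (difference 0.323, exact permutation p = 0.1, adjusted p = 0.2). At Cbfb the numbers were 9, 9 and 11 against 8, 8 and 6, without overlap (difference -2.33, exact permutation p = 0.1, adjusted p = 0.2). The difference was -1.67 without KO replicate 3. Per 10000 peaks Cbfb had 1.41, 1.43 and 1.47 regions in f/f and 1.25, 1.24 and 1.82 in KO (difference -0.00108, exact permutation p = 1). On this scale only KO replicate 3 stood above f/f, and KO replicates 1 and 2 stood below each f/f library. With equal numbers of peaks from each list the difference was 0 at Runx1 and Runx3, and at Cbfb 7 regions had a peak in each f/f library and 6 in each KO library.

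**Figure D2:**
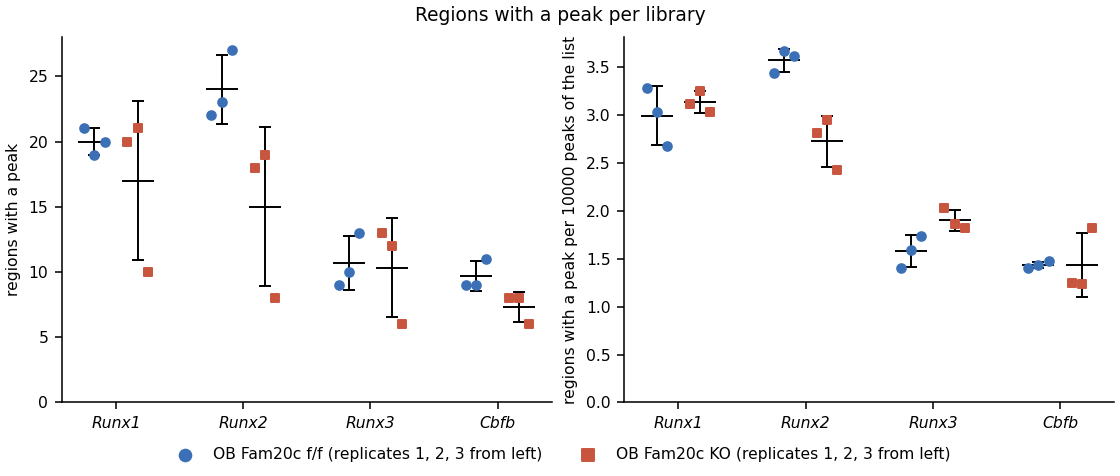
Number of regions with a peak at each gene (left) and the same per 10000 peaks of the list (right), with 1 point per library and the mean ± SD of 3 libraries in black. At Runx2 the f/f points lie above the KO points on both scales, which was not so with equal numbers of peaks from each list, and at Runx3 below them on the right only. At Cbfb the f/f points lie above the KO points on the left, and on the right above those of KO replicates 1 and 2 only.

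Peaks that were present in 1 group only were rare at these genes. A region counts as only in f/f when all 3 of its libraries and no KO library had a peak, which held for 2 of the 85 regions (2.35%, against 3.75% of all regions). Both lay inside Runx2. The region 169 kb from the start (chr17:44645105-44645568) stood at 20.6, 12.7 and 20.3 in the f/f lists. The region 96.1 kb from the start (chr17:44718169-44718858) stood at 7.36, 5.62 and 7.61. Both thus stood low in their lists. The same 2 regions were the ones that every f/f list held and that had a peak in neither KO replicate 1 nor 2, against 3.78% of all regions. No region of the 4 loci was only in KO by the same rule, against 0.179% of all regions.

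Since the list of KO replicate 3 is short, regions that KO replicates 1 and 2 both listed and every f/f list lacked were also counted. There were 5 of them (5.88%, against 2.9% of all regions), 3 at Runx3, 1 at Runx1, 1 at Runx2 and 0 at Cbfb. At Runx3 a pair of them lay on either side of a region downstream of the gene that all 6 libraries shared (chr4:135191026-135192020). The left one (chr4:135189671-135190136) stood at 41.0 and 50.1 in KO replicates 1 and 2, and the right one (chr4:135192880-135193450) at 50.1 and 25.0. The third lay in the gene, 50.9 kb from the distal start (chr4:135171390-135171764), at 7.36 and 17.9. The Runx2 region lay near the 3′ end (chr17:44508142-44508702), at 45.3 and 39.4, and the Runx1 region 273 kb from the distal start (chr16:92552946-92553345), at 30.1 and 18.6. A region without a peak fell short of the calling threshold in that library, and its chromatin was not necessarily closed.

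The ranks of regions that all 6 libraries shared allowed a finer comparison. Standings were computed anew among the 29849 regions with a peak in every library, turned into normal scores and compared between the groups with limma, with Benjamini-Hochberg adjustment over all of them. By −log10 q, 4 of the 30 shared regions of the 4 loci passed an adjusted p of 0.05 (13.3%, against 22.5% of all shared regions). Of these, 3 were higher in KO, against 12.2% of all shared regions, and 1 was lower, against 10.3%. By fold 0 of 30 passed in limma, against 1.49% higher, 1.32% lower and 2.81% in either direction, while 5 had an unadjusted p under 0.05, against 21% of all shared regions. These are few regions, and the shares called are read neither as above nor as below those of the whole list.

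The Cbfb start region (chr8:105170095-105171839) stood higher in KO. Its standings by −log10 q among the shared regions were 65.6, 60.6 and 56.1 in f/f and 81.9, 78.1 and 79.7 in KO, and the groups did not overlap. The means were 60.7 ± 4.76 and 79.9 ± 1.91 (SD, n = 3 each), with a difference in normal score of 0.57 ± 0.12 (SE, limma adjusted p = 0.0102). By fold the standings were 54.3, 51.2 and 35.1 against 74.2, 61.2 and 84.7, also without overlap (limma adjusted p = 0.130). Without f/f replicate 3 the adjusted p by −log10 q was 0.0527.

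At Runx1 the distal start region (chr16:92824481-92826272) stood higher in KO and was the lowest of the start regions of the 4 genes in f/f. Its standings by −log10 q were 20.9, 17.3 and 17.8 in f/f and 36.2, 32.8 and 36.0 in KO, without overlap. The difference in normal score was 0.51 ± 0.11 (SE, limma adjusted p = 0.0124, and 0.0555 without f/f replicate 3). By fold it stood at 5.51, 4.32 and 4.01 against 9.93, 7.95 and 22.1 (limma adjusted p = 0.207). The proximal start region (chr16:92696519-92698880) stood at 68.9, 62.9 and 67.7 against 74.2, 77.0 and 83.3 by −log10 q, which did not overlap either and did not pass (limma adjusted p = 0.0728, and 0.196 without KO replicate 3).

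A region downstream of Runx1, 244 kb from the distal start (chr16:92581577-92582575), had the largest difference of the 30 in normal score by −log10 q, though not in standing or by fold. It stood at 0.799, 3.28 and 2.65 in f/f, among the weakest regions that all libraries shared, and at 13.3, 16.2 and 15.7 in KO. The difference in normal score was 1.03 ± 0.16 (SE, limma adjusted p = 0.0026). By fold it stood at 3.90, 9.45 and 12.7 against 22.4, 30.2 and 21.1 (limma adjusted p = 0.114, and 0.0204 without KO replicate 3).

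Other shared regions near Runx1 and on the rest of its chromosome also differed between the groups, and their part in these results was not tested. Over the rest of chromosome 16, 34.2% of 1031 shared regions were lower in KO and 10.2% higher, with a median difference in standing of -3.75. Within 2.5 Mb of Runx1, 4.17% of 120 were lower and 16.7% higher, with a median of 2.95. For the other genes the median within 2.5 Mb was 0.479 at Runx2, -1.85 at Runx3 and 0.0938 at Cbfb. Regions over any listed start were higher in 13.1% and lower in 6.99% of 9275 cases, and their median difference in standing by fold was 4.77.

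The strongest Runx2 region, that near the 3′ end of the gene (chr17:44500201-44501248), was the 1 that stood lower. Its standings by −log10 q were 92.3, 92.5 and 93.7 in f/f and 83.1, 87.0 and 84.3 in KO, without overlap. The difference in normal score was -0.44 ± 0.11 (SE, limma adjusted p = 0.0243). It did not pass when f/f replicate 2 (adjusted p = 0.0632) or 3 (0.0974) or KO replicate 1 (0.0739) or 3 (0.0602) was left out of the limma fit. By fold the groups overlapped, at 77.6, 87.0 and 80.5 against 74.7, 77.9 and 83.5 (limma adjusted p = 0.776).

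The listed Runx2 start region (chr17:44814084-44815483) did not separate the groups. It stood at 65.5, 61.8 and 56.7 in f/f and at 31.4, 56.9 and 65.1 in KO by −log10 q, with KO replicate 1 the lowest of the 6 (limma adjusted p = 0.391). Inside Runx2, the region over the start of Supt3 (chr17:44776675-44777954), a gene that overlaps Runx2 and encodes a subunit of the SAGA complex, stood at 80.5, 89.1 and 84.1 against 89.1, 90.1 and 90.3 (limma adjusted p = 0.200).

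No shared region of Runx3 passed. The distal start region (chr4:135119628-135120879) stood at 78.4, 77.3 and 82.8 in f/f and 83.6, 78.9 and 84.3 in KO (limma adjusted p = 0.573). In f/f it was the highest of the start regions of the 4 genes, and it also covers a start of Gm16225. The proximal start region (chr4:135152031-135154265) stood at 27.6, 22.0 and 28.8 against 27.7, 22.0 and 24.1 (limma adjusted p = 0.802). The smallest p at Runx3 was that of a region 24.7 kb upstream (chr4:135095407-135096464), which stood at 44.2, 42.5 and 43.0 against 19.2, 24.0 and 36.7, without overlap (limma adjusted p = 0.0504, and 0.0405 without KO replicate 3).

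**Figure D3:**
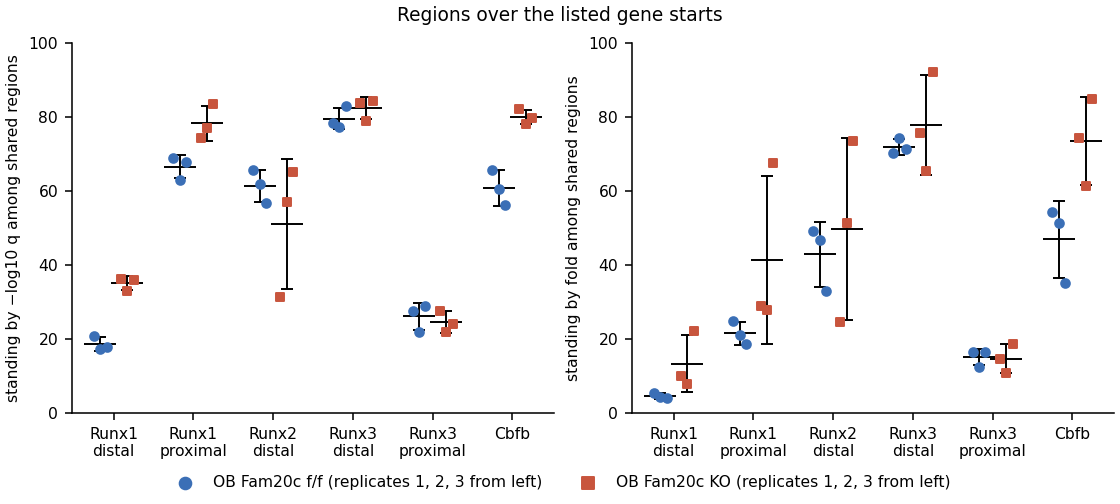
Standings of the regions over the 6 listed starts of Runx1, Runx2, Runx3 and Cbfb among the regions shared by all 6 libraries, by −log10 q (left) and by fold (right), from 0 (lowest) to 100 (highest), with 1 point per library and the mean ± SD of 3 libraries in black. By −log10 q the groups are apart at both Runx1 starts and at Cbfb and overlap at Runx2 and at both Runx3 starts.

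The order of the start regions in f/f by mean standing was Runx3 distal (79.5 ± 2.95), Runx1 proximal (66.5 ± 3.15), Runx2 (61.3 ± 4.42), Cbfb (60.7 ± 4.76), Runx3 proximal (26.1 ± 3.66) and Runx1 distal (18.7 ± 1.93; SD, n = 3 each). The ranges of Runx1 proximal, Runx2 and Cbfb overlapped one another, while the others were set apart. In KO the means were 82.3 ± 2.91 at Runx3 distal, 79.9 ± 1.91 at Cbfb, 78.2 ± 4.67 at Runx1 proximal, 51.1 ± 17.6 at Runx2, 35.0 ± 1.89 at Runx1 distal and 24.6 ± 2.88 at Runx3 proximal. At both Runx1 and Runx3 one start region stood far above the other, the proximal one at Runx1 and the distal one at Runx3, in each of the 6 libraries.

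Over all 30 shared regions, the ranks by −log10 q did not overlap between the groups in 7 that stood higher in KO, against 21.1% of all shared regions, and in 4 that stood lower, against 20.9%. By fold this held for 6 higher (against 15.5%) and 2 lower (against 13.9%). The median difference in normal score was 0.05 over the 30 by −log10 q and 0.18 by fold, and -0.02 and 0.02 over all shared regions. The median standing of the shared regions of a locus by −log10 q differed between KO and f/f by -4.51 at Runx1, -3.13 at Runx2, -6.26 at Runx3 and 4.13 at Cbfb (exact two-sided permutation tests, p = 0.5, 0.9, 0.4 and 0.3, adjusted over the 4 loci 0.667, 0.9, 0.667 and 0.667). Ranked within each whole list instead, the differences were -9.73 at Runx1, -9.61 at Runx2, -13.3 at Runx3 and -5.10 at Cbfb (exact permutation p = 0.1, 0.2, 0.1 and 0.8). The 29849 shared regions fill most of the 32958 peaks of KO replicate 3 and a smaller part of the longer lists. Standings on this scale therefore move with list length. The difference over all shared regions on this scale is not given here, so these values are not read as particular to the 4 loci. By fold the medians at Runx1 were 27.7, 23.8 and 20.2 in f/f and 32.7, 30.9 and 40.5 in KO, without overlap (exact permutation p = 0.1, adjusted p = 0.4).

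**Figure D4:**
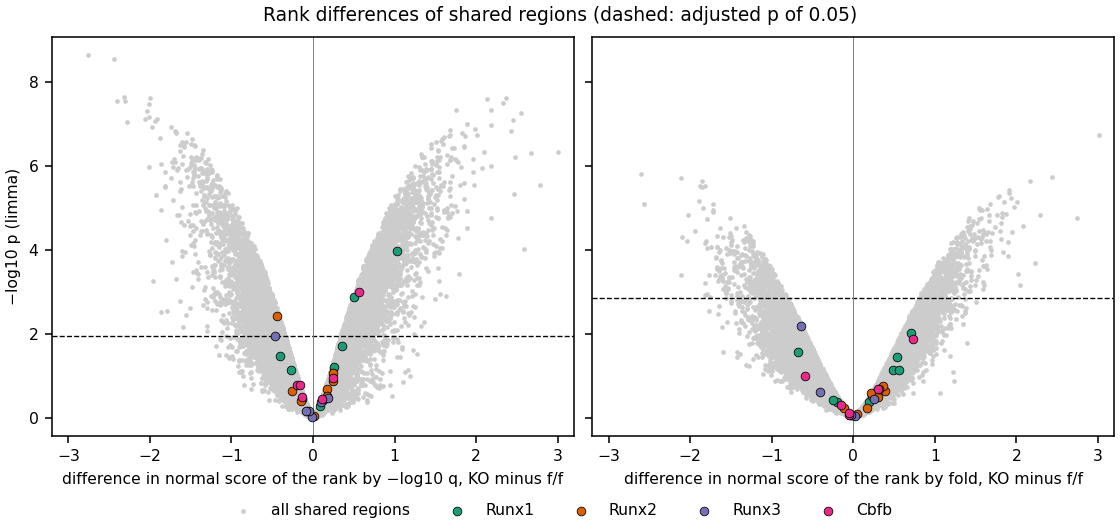
Difference in the normal score of the rank between KO and f/f against −log10 p of limma, by −log10 q (left) and by fold (right), for all 29849 shared regions in grey and the 30 of the Runx1, Runx2, Runx3 and Cbfb loci in colour. On the left 4 coloured points lie above the dashed line, which marks an adjusted p of 0.05, and on the right none does.

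Without KO replicate 3, 49 regions of the 4 loci had a peak in all 5 remaining libraries. By −log10 q 6 of these were higher in KO in limma (12.2%, against 8.01% of all 46989 such regions), and 1 was lower (2.04%, against 7.86%). The 6 were 4 Runx1 regions, a weak region downstream of Runx2 and the Cbfb start. At Runx1 they were the downstream region and the distal start already named, a region 152 kb from the distal start (chr16:92674055-92674634) and a region 87.7 kb from it (chr16:92737817-92738964). The region at 152 kb stood at 2.33, 2.29 and 8.77 in f/f and at 25.0 and 18.8 in KO replicates 1 and 2 (limma adjusted p = 0.0298). The region at 87.7 kb stood at 10.4, 9.08 and 7.97 against 17.1 and 18.9 (limma adjusted p = 0.0438). The Runx2 region (chr17:44480986-44481605) stood at 0.342, 0.493 and 0.305 against 2.66 and 3.73 (limma adjusted p = 0.00903), at the bottom of all lists. The Runx3 region 24.7 kb upstream was the 1 that was lower, at 63.7, 62.8 and 62.9 against 44.0 and 49.3 (limma adjusted p = 0.0405). The Runx2 region near the 3′ end was not among the 7. By fold 2 regions were higher, against 5.15%, both at Runx1, the downstream region and that at 152 kb, and 0 were lower, against 5.34%.

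**Figure D5:**
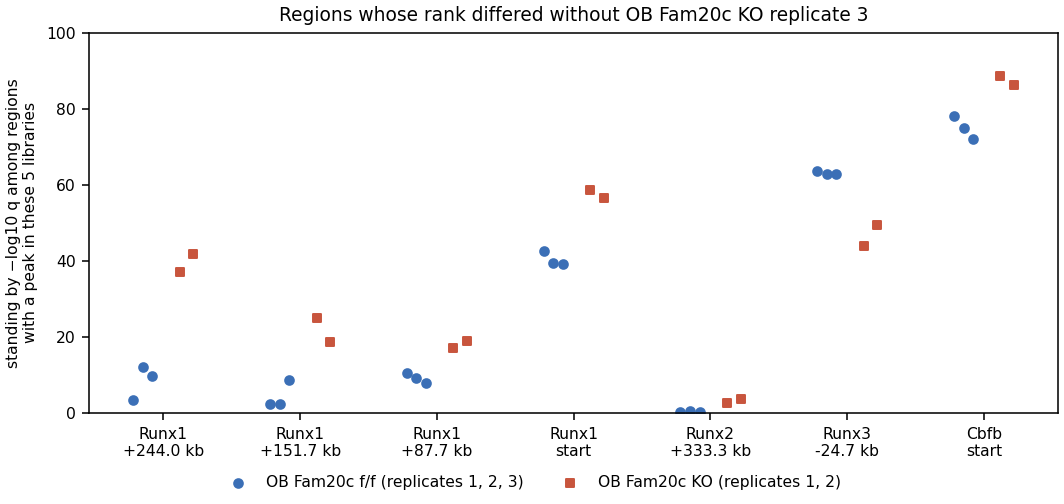
Standings by −log10 q among the regions with a peak in the 5 libraries other than KO replicate 3, for the 7 regions of the Runx1, Runx2, Runx3 and Cbfb loci that passed limma without that library, with 1 point per library. Labels give the gene and the distance from its first listed start. The KO points lie above the f/f points in 6 regions and below them in the Runx3 region.

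Genes that work with RUNX proteins were counted as lists. Partners and regulators, such as the TLE co-repressors, the MTG co-repressors, histone acetyltransferases and SMADs, numbered 38 genes with 487 regions. Of these 7 were only in f/f (1.44%), 0 only in KO and 12 in KO replicates 1 and 2 with no f/f library (2.46%). By −log10 q 30 of their 210 shared regions were higher in limma (14.3%, against 12.2% of all shared regions) and 25 lower (11.9%, against 10.3%). Cbfa2t3, an MTG co-repressor, held 3 of the 7. Known RUNX targets in bone and cartilage numbered 20 genes with 222 regions. Of these 6 were only in f/f (2.70%), 0 only in KO and 11 in KO replicates 1 and 2 with no f/f library (4.95%). By −log10 q 7 of their 70 shared regions were higher (10.0%) and 9 lower (12.9%), beside the same backgrounds. Alpl, the alkaline phosphatase of mineralizing osteoblasts, held 2 of the 6, and Bglap and Bglap2 share their regions. Over all regions 3.75% were only in f/f and 2.9% were in KO replicates 1 and 2 with no f/f library, so that the targets lay below the first share and above the second, on 6 and 11 regions.

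The genes whose share of regions with a peak ran most like that of each member over the 6 libraries were sought among 9107 to 9114 protein-coding genes with 10 or more regions, by the Euclidean distance between the shares. The nearest to Runx2 were Dlg2 (distance 0.0770), Ccdc183 (0.0772) and Ccdc146 (0.0787). At Runx2 the shares were 68.8%, 71.9% and 84.4% in f/f and 56.2%, 59.4% and 25.0% in KO, and at Dlg2 70.2%, 72.3% and 87.2% against 55.3%, 59.6% and 31.9%. The nearest to Runx1 were Pou2f2 (0.0472), Glce (0.0550) and Sectm1a (0.0591), to Runx3 Fkbp5 (0.0686), Tekt3 (0.0716) and Litaf (0.0758), and to Cbfb Ptpra (0.0441), Lck (0.0598) and Ddx47 (0.0619). The likeness is a description over 6 libraries that all of these genes share, and it moves with the length of each list.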

How the data were processed

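ATAC-seq was done on 3 libraries of OB Fam20c f/f cells and 3 of OB Fam20c KO cells (f/f and KO), grouped and numbered by the sample titles. According to the methods and the submitters' processing notes, the authors trimmed the reads, aligned them to mm10 with BWA and called peaks in each library, using MACS2 2.1.2 and a threshold of 0.05 on the q-value. How duplicate reads and blacklisted regions were treated is not given in the sources used here. The deposited lists give a score, which was not used, the fold (a ratio of the pileup at the summit to the local background), and the −log10 p and −log10 q of each peak as MACS2 wrote them. They hold no counts, so the authors' DESeq2 comparison of reads in peaks was not run. Depth per library, which the paper reports, was not used. By the paper's read numbers the library with the fewest reads was f/f replicate 1 and not KO replicate 3. The number of peaks, from 32958 to 74797, limits the precision of the ranks and counts.

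Peaks sharing 1 bp were merged, and genes, starts and sequences came from RefSeq tables of GRCm38.p6. All 4 genes matched. Where a region held several peaks of a library, the highest was used. Numbers of regions and median standings were compared by exact permutation tests over the 20 assignments of the libraries. Ranks were compared with limma 3.58.1 in R 4.3.3 with Benjamini-Hochberg adjustment at 0.05. On simulated ranks of 29849 regions, limma recovered 161 of 200 regions that were shifted by 1 in normal score, with 4 false calls. The simulated noise was independent between regions and libraries, with its spread taken from f/f and KO replicates 1 and 2. It therefore does not give the error rate on the real lists, where KO replicate 3 differs and neighbouring regions can move together. The members and lists were chosen with earlier results of these data known. Regions named are those over a listed start, the strongest of each locus, those present in 1 group only or in KO replicates 1 and 2 only, those that passed limma or, where none did, had the smallest p, and those over neighbours' starts. The widest region and that between the pair at Runx3 were chosen after their values were seen. Alternatives were a −log10 q of at least 5, equal numbers of peaks, an overlap of 50%, spans extended by 3 or 0 kb, other scales, the replicate number as a block and each library left out. Other steps used scipy 1.17.1, pandas 2.3.3, numpy 2.4.6 and matplotlib 3.10.9 in Python 3.11.15.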

Additional observations from a re-analysis of the deposited data

How the results depend on the processing

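The difference in the number of regions stayed negative at Runx2 and at Cbfb but came close to 0 under some alternatives. At Runx2 it was -11 to -5.5 when a library was left out, -6 with a −log10 q of 5 or more (exact permutation p = 0.3) and -0.333 with equal numbers of peaks from each list (p = 1). At Cbfb it was -2.67 to -1.67 when a library was left out, -1 with equal numbers of peaks and -0.00108 per 10000 peaks (exact permutation p = 1). At Runx1 (-5 to 0.5) and Runx3 (-1.67 to 1.83) it was not. With equal numbers of peaks from each list the difference was 0 at Runx1 and at Runx3, and at Runx3 also with spans extended by 3 or 0 kb. Per 10000 peaks of the list it turned to 0.141 at Runx1 and 0.323 at Runx3. The cause was not tested. The number of regions only in f/f, 2 and both at Runx2, became 1 with a −log10 q of 5 or more and 0 with an overlap of 50%. It was 10 with a peak in 2 of 3 libraries, and 2 to 7 with a library left out. With equal numbers of peaks it was 1, which lay at Cbfb, and 0 at Runx2. The 0 only in KO became 2 with equal numbers of peaks, 5 with a peak in 2 of 3 libraries, and 0 to 5 with a library left out. By −log10 q in limma, the regions higher in KO numbered 1 to 6 with a library left out, and those lower 0 to 1. The count of lower regions was 0 on log2 values and 2 with a −log10 q of 5 or more. By fold 0 to 2 were higher and 0 lower. Over the whole series, limma by fold called 446 regions higher and 394 lower, 24 and 16 with the replicate number as a block, 2418 and 2508 without KO replicate 3, and 0 or 1 higher and 0 lower when any f/f replicate was left out. The median standing turned to 10.8 at Runx1, 2.38 at Runx2 and -0.349 at Cbfb when ranked by fold, to 1.83 at Runx3 with spans extended by 3 kb, and to -5.10 at Cbfb by rank within the whole list, which gave -9.73 at Runx1, -9.61 at Runx2 and -13.3 at Runx3. Rank within the whole list moves with the length of each list. The median standing among shared regions was the main scale. With a library left out the difference on the main scale ran from -6.56 to 0.201 at Runx1, -4.50 to 1.95 at Runx2, -6.91 to -1.14 at Runx3 and 1.92 to 6.53 at Cbfb. The deviations of same-numbered libraries had correlations of 0.0486, -0.122 and -0.138. With 3 libraries a group these cannot settle whether the numbers pair the samples. With the replicate number as a block, the lower region of Runx2 did not pass (limma adjusted p = 0.0551), leaving 0 lower and 3 higher. The differences in counts of regions and in median standings cannot change under such a block. Its exact sign-flip test over 3 pairs has a smallest p of 0.25. A peak list shows neither read depth nor weak signal, so weak regions missing from the shortest list cannot be told from closed ones.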
